A study of Mus musculus with 28 samples.

Results

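ETn and MMETn are mouse retrotransposons of the ERVK group. The elements described here were every annotated repeat row whose name held an internal part beginning with ETnERV or MMETn, which gave 2689 rows (called integrants below) of 3404964 repeat rows in all. Of these, 2069 belonged to the ETnERV family (545 ETnERV-int, 1256 ETnERV2-int and 268 ETnERV3-int) and 620 to MMETn-int. Integrants with at least 16 reads summed over the 16 RNA libraries numbered 613 of 2069 for ETnERV (347, 193 and 73 for the 3 internal parts) and 493 of 620 for MMETn, and only these 1106 entered a test.

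Strand-specific RNA-seq was made from mouse embryonic stem cells of the J1 line (129S4/SvJae) kept in the naive state with 2i and LIF, in wild-type cells (WT), in a line without Dnmt1, Dnmt3a and Dnmt3b (DNMT TKO) and in a line without Tet1, Tet2 and Tet3 (TET TKO). Cells of each genotype received a puromycin-selected lentiviral vector that either carried a hairpin against Kap1, also called Trim28 (shKap1), or no hairpin (shEmpty), and were collected after 5 days. There were 3 libraries for each hairpin in WT, 3 in DNMT TKO and 2 in TET TKO. The mutant lines came from different outside laboratories, and the study's methods name no strain for either. Each mutant was 1 cell line, so that a difference between genotypes cannot be told apart from one between lines, and which annotated integrants each line carries was not measured. In these bulk libraries, a change in the number of cells that transcribe an integrant and a change in RNA per cell cannot be told apart.

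ETn (early transposon) elements have long terminal repeats (LTRs) that drive transcription from the 5′ LTR, but their internal part lacks intact retroviral genes, and they move with proteins supplied by coding relatives, of which MusD is the best known. Not all rows counted here lack long reading frames: 71 of 545 ETnERV-int rows and 7 of 620 MMETn rows held one of at least 500 codons. KAP1 is a corepressor that KRAB zinc finger proteins bring to such elements, where the methyltransferase SETDB1 deposits H3K9me3. DNMT enzymes methylate cytosine in CpG pairs, and TET enzymes oxidise 5-methylcytosine to 5-hydroxymethylcytosine (5hmC).

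The LTR is the part of an integrant in which transcription starts, and the results below differed by LTR type. For that reason the first 300 bases of the 5′ LTR are given for 4 integrants, 1 for each of 4 pairings of internal part and LTR that the results turn on, in the sense of the element, with every CpG in capitals (reference mm9).
ETnERV-int with ERVB7_1-LTR_MM, chr14:19086562-19086861 (plus strand): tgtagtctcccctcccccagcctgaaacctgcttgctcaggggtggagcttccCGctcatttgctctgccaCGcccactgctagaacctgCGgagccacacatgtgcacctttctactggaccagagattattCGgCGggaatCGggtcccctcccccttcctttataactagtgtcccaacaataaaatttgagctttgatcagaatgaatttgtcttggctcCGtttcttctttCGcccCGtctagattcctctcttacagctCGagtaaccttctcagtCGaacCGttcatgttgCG
MMETn-int with ERVB7_1-LTR_MM, chr9:7804887-7805186 (minus strand): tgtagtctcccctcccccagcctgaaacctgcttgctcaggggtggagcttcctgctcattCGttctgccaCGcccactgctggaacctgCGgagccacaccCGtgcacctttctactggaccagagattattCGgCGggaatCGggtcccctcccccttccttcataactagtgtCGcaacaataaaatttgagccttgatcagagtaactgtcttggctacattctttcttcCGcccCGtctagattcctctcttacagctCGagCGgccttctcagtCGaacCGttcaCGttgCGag
MMETn-int with RLTRETN_Mm, chr1:154930210-154930509 (minus strand): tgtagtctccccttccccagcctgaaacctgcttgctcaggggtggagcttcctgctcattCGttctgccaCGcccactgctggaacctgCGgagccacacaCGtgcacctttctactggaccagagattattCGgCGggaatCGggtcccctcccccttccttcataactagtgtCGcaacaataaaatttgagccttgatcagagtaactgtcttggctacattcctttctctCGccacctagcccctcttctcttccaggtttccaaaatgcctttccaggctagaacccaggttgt
MMETn-int with ERVB7_2B-LTR_MM, chr9:4079171-4079470 (plus strand): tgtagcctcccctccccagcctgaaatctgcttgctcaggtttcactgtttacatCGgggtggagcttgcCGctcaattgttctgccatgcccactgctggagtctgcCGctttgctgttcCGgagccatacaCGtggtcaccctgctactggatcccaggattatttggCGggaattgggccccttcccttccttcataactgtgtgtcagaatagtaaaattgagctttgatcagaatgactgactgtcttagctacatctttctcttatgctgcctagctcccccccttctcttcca
The ERVB7_1-LTR_MM starts held 13 CpG pairs in the ETnERV-int integrant and 16 in the MMETn-int one, the RLTRETN_Mm start held 9 and ERVB7_2B-LTR_MM 6. The pair of ERVB7_1-LTR_MM starts were 92% identical by edit distance, although annotated with different internal parts. RLTRETN_Mm was 84.7% and 88.3% identical to them, and ERVB7_2B-LTR_MM between 62.7% and 63.7% identical to those 3. Over all integrants with an LTR at both ends and a sequence, the median CpG number in these 300 bases was 14 for ETnERV-int with ERVB7_1-LTR_MM (n = 91, range 2 to 17), 15 for MMETn with ERVB7_1-LTR_MM (n = 28, range 9 to 17) and 8 for MMETn with RLTRETN_Mm (n = 146, range 1 to 12).

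Just behind the 5′ LTR, where a retrovirus usually has its primer-binding site, most of these integrants held 18 bases that began with TGG. The stretches are shown for integrants that responded in opposite ways in the mutants, which are described further on, with the 18 bases in capitals between 10 flanking bases on each side.
ETnERV-int integrant chr4:19076593-19084076 with ERVB7_1-LTR_MM, chr4:19076904-19076941 (plus strand): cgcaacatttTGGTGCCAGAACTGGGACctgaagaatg
MMETn-int integrant chr9:7798967-7805186 with ERVB7_1-LTR_MM, chr9:7804838-7804875 (minus strand): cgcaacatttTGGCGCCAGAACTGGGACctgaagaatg
MMETn-int integrant chr10:24574321-24579921 with ERVB7_1-LTR_MM, chr10:24574633-24574670 (plus strand): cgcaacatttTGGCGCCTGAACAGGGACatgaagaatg
ETnERV-int integrant chr8:80663654-80671130 with ERVB7_1-LTR_MM, chr8:80670781-80670818 (minus strand): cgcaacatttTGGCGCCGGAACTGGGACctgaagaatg
MMETn-int integrant chr3:135432517-135438120 with ERVB7_1-LTR_MM, chr3:135437771-135437808 (minus strand): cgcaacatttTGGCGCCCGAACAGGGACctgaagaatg
MMETn-int integrant chr4:146918667-146924147 with RLTRETN_Mm, chr4:146918980-146919017 (plus strand): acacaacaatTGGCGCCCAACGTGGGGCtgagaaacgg
MMETn-int integrant chr6:127464047-127470987 with RLTRETN_Mm, chr6:127464360-127464397 (plus strand): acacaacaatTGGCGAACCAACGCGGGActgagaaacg
Such a stretch was searched on the sense strand within bases 290 to 480 as 18 bases that begin with TGG, then a C or T, then an A or G, and that follow an A and 2 to 6 bases without G. It was found in 255 of the 335 integrants with an LTR at both ends and a sequence. The most frequent forms were TGGCGAACCAACGCGGGA in 56 integrants, all with RLTRETN_Mm, and TGGCGCCAGAACTGGGAC in 56, all with ERVB7_1-LTR_MM, followed by TGGCGCCCAACGTGGGGC in 21 (RLTRETN_Mm) and TGGCGCCCGAACAGGGAC in 18 (ERVB7_1-LTR_MM). Of the 255 integrants with a stretch, 78.4% overlapped a KAP1-bound region, and of the 80 without, 35.0%. The latter hold all integrants with RLTR13A, RLTR13A2 or RLTR13A3 ends (2 of 11, 4 of 10 and 2 of 15 on KAP1), so that the shares also part LTR types. Within ETnERV-int with ERVB7_1-LTR_MM, 66.7% of the 15 without a stretch overlapped KAP1, and 93.4% of all 91. A match describes these letters and does not show that a tRNA primes there.

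In the median, ETnERV-int and ETnERV2-int rows were shorter than MMETn-int rows, and many ETnERV rows had no uniquely mapped read. Median lengths were 1720 bp for ETnERV-int, 1031 bp for ETnERV2-int, 2803 bp for ETnERV3-int and 2657 bp for MMETn-int. An LTR at both ends was annotated for 109, 7, 53 and 188 of them. The longest open reading frame reached 500 codons in 71 ETnERV-int, 9 ETnERV3-int and 7 MMETn integrants, and its greatest length was 830, 269, 588 and 514 codons in the 4 subfamilies. No read was assigned to 883 ETnERV rows and 26 MMETn rows, and 1 to 15 reads to 573 and 101. Most lay between genes (1780 of 2069 and 500 of 620), while 23 ETnERV and 7 MMETn rows overlapped an exon on the same strand. Some rows lay inside a longer one and counted the same reads (116 in each family), and some were neighbouring pieces of 1 element. Of the rows inside a longer one, 84 ETnERV and 85 MMETn rows had at least 16 reads and entered the tests. Such nested rows held 13.1% of ETnERV and 1.66% of MMETn reads.

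The RNA libraries held 18108400 to 29373700 reads in genes, and 33905 to 134772 reads fell on these integrants. Only uniquely mapped reads had been kept, so that near-identical copies lose reads and their levels are understated. Of all reads on the 2689 integrants, MMETn held 70.3%, ETnERV-int 20.9%, ETnERV3-int 4.74% and ETnERV2-int 4.00%. The 10 integrants with the most reads carried 33.3% of ETnERV and 30.9% of MMETn reads. Levels are given as CPM, the reads in each 1e6 gene reads after scaling of the gene totals.

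Trim28 itself fell in every shKap1 library. Its levels in WT were 1991, 1639 and 1626 CPM with shEmpty and 190, 156 and 149 CPM with shKap1 (log2 change -3.41, SE 0.16). In TET TKO they were 1771 and 1898 against 163 and 168 CPM (log2 change -3.47, SE 0.20). In DNMT TKO they were 2085, 1819 and 1701 against 327, 448 and 506 CPM (log2 change -2.13, SE 0.15), so that more Trim28 RNA remained there than in WT (difference of log2 changes 1.28, SE 0.21, edgeR adjusted p = 0.0008). This residual moves with each comparison of the knockdown effect in DNMT TKO given below, and its part in them was not tested. The DNMT TKO shKap1 library of replicate 1, with the lowest Trim28 of that group, stood apart in MMETn, and the DNMT TKO shEmpty library of replicate 1 in ETnERV3-int; family sums without them are given below.

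Pluripotency genes were expressed in all libraries. The summed level of 8 ES cell genes was 5139 to 5376 CPM in WT, 4869 to 5097 CPM in DNMT TKO and 5998 to 6095 CPM in TET TKO with shEmpty. With shKap1 it was 3070 to 3149, 3256 to 3865 and 3964 to 4052 CPM. Among the 8, Sox2 (log2 change -1.34) and Klf4 (-1.32) passed the test as lower in WT and Zfp42 (-1.52) in DNMT TKO. The 3 measured genes of the 2-cell-like state rose in every genotype: Zscan4c by 3.28, 2.91 and 5.92 on the log2 scale in WT, DNMT TKO and TET TKO, Zscan4d by 3.41, 2.31 and 6.19 and Zfp352 by 2.90, 2.74 and 6.02. Their summed level went from 10.2 to 19.7 CPM up to 154 to 171 CPM in WT, from 4.72 to 14.8 up to 47.1 to 104 in DNMT TKO and from 6.65 to 7.23 up to 463 to 477 in TET TKO. Markers of other cells were low by comparison. The sum of 4 fibroblast genes was 3.28 to 8.14 CPM with shEmpty and 3.04 to 11.4 CPM with shKap1, that of 3 endoderm genes lay between 3.89 and 12.5 CPM and that of 2 mesoderm genes between 1.71 and 14.3 CPM in all libraries. A pair of trophoblast genes summed to 3.63 to 24.0 CPM. Pax6, the 1 ectoderm gene of the list that was measured, rose in every genotype, from 0.743 to 1.78 CPM up to 6.24 to 8.33 in WT, from 1.73 to 3.86 up to 5.30 to 13.6 in DNMT TKO and from 0.564 to 0.601 up to 3.06 to 3.34 in TET TKO. In WT, DNMT TKO and TET TKO the knockdown was called to raise 2, 1 and 0 fibroblast, 1, 1 and 0 endoderm and 1, 1 and 1 ectoderm genes, and to lower 1, 0 and 1 fibroblast, 1, 1 and 1 mesoderm and 0, 1 and 0 trophoblast genes (edgeR, adjusted over all genes). No measured marker was at 0 in a whole group. These genes move with the hairpin as the integrants do, and their part in the results below was not tested.

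Both families rose on Kap1 knockdown in all 3 genotypes. The summed ETnERV level was 436 CPM ± 59.3 (SD, n = 3) with shEmpty and 1517 ± 29.3 with shKap1 in WT, 551 ± 103 and 1989 ± 270 in DNMT TKO, and 260 ± 23.1 and 1605 ± 18.8 (n = 2) in TET TKO. In log2 terms the sum rose by 1.80 (SE 0.15, adjusted p = 1.3e-06), 1.85 (SE 0.15, adjusted p = 9.0e-07) and 2.63 (SE 0.19, adjusted p = 3.0e-07) by edgeR's quasi-likelihood test among 887 repeat families. MMETn went from 1646 ± 82.0 to 3920 ± 160 CPM in WT, from 1305 ± 36.4 to 3157 ± 922 in DNMT TKO and from 1163 ± 39.9 to 4233 ± 121 in TET TKO. Its rise in the mutants was 1.27 (SE 0.16, adjusted p = 3.7e-05) and 1.86 (SE 0.19, adjusted p = 8.7e-06). No shEmpty library overlapped a shKap1 library of its genotype in either sum. The 3 DNMT TKO shKap1 libraries spread from 2428 to 4193 CPM in MMETn, replicate 1 being the highest, and the rise without it was 1.00 for MMETn and 1.73 for ETnERV.

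**Figure D1:**
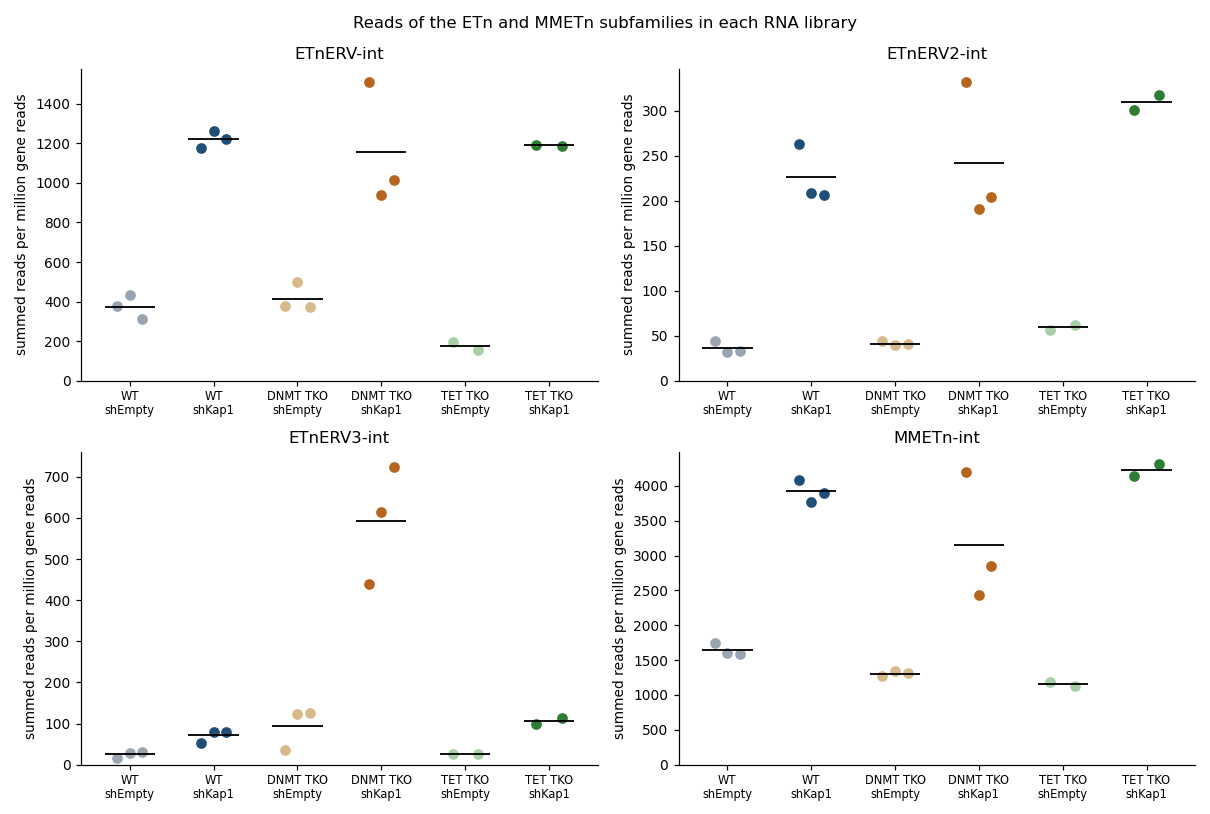
Summed level of each subfamily in every RNA library, in CPM on linear axes that start at 0; points are libraries of the 3 genotypes with shEmpty or shKap1 and lines their means. All 4 subfamilies stand higher with shKap1, and ETnERV3-int reaches 439 to 724 CPM in DNMT TKO against 52.8 to 80.5 in WT.

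Between the families, ETnERV rose by more than MMETn. The log2 ratio of MMETn to ETnERV reads was 1.70 to 2.09 in WT shEmpty and 1.28 to 1.45 in WT shKap1 libraries, 1.02 to 1.48 and 0.48 to 0.88 in DNMT TKO, and 2.11 to 2.22 and 1.38 to 1.42 in TET TKO. It fell in each genotype, by 0.65 on average (exact permutation test of the hairpin labels within genotypes, two-sided, p = 0.000833, the smallest that 2400 arrangements give, and 0.000972 after Benjamini-Hochberg adjustment over 7 such ratios). This and the later ratio tests did not keep together the same-numbered libraries that were taken to pair in WT and DNMT TKO. A shuffle within pairs has fewer arrangements and could not reach so small a p. Since ratios within a library show unequal change alone, each family's own rise is the one given above.

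Each of the 3 ETnERV subfamilies rose in every genotype. ETnERV-int, the largest part of the ETnERV reads, went from 373 ± 61.1 to 1220 ± 42.0 CPM in WT, from 415 ± 70.9 to 1155 ± 310 in DNMT TKO and from 174 ± 27.4 to 1190 ± 3.43 in TET TKO, a rise of 1.71 (SE 0.20), 1.48 (SE 0.20) and 2.77 (SE 0.25) on the log2 scale. ETnERV2-int, mostly fragments without an LTR, went from 36.7 ± 6.82 to 226 ± 32.2, from 41.1 ± 2.25 to 242 ± 77.7 and from 59.2 ± 4.12 to 309 ± 12.2 CPM, a rise of 2.63 (SE 0.22), 2.56 (SE 0.22) and 2.38 (SE 0.26). ETnERV3-int went from 25.6 ± 8.27 to 71.0 ± 15.8 in WT, from 94.4 ± 51.5 to 593 ± 144 in DNMT TKO and from 26.0 ± 0.187 to 106 ± 10.0 in TET TKO. Its rises were 1.46 (SE 0.44, adjusted p = 0.020), 2.65 (SE 0.44, adjusted p = 4.5e-04) and 2.02 (SE 0.55, adjusted p = 0.0095), and the excess in DNMT TKO over WT did not pass (1.18, adjusted p = 0.27).

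Counted by integrant, calls are those with an adjusted p under 0.05 over all 123880 repeat integrants tested and a change of at least 2-fold. In WT, 363 of 613 tested ETnERV (of 2069 rows) and 301 of 493 tested MMETn integrants (of 620) were called higher with shKap1, where 12.1% of all tested integrants were. In DNMT TKO these counts were 410 and 313 (15% of all), and in TET TKO 406 and 326 (14.7% of all). At most 3 per family and genotype were called lower (2.05%, 0.944% and 0.971% of all). An integrant that reached 16 reads only through its shKap1 libraries had to differ, so that the shares of tested integrants describe the lists and are not evidence by themselves. The median fitted log2 change was 2.94, 3.08 and 3.53 for ETnERV and 2.20, 2.34 and 2.74 for MMETn, against 0.23, 0.27 and 0.33 over all tested integrants. With a floor of 3 reads per group for integrants whose lower group had fewer, the medians were 2.32, 2.52 and 2.64 for ETnERV and 1.97, 2.11 and 2.48 for MMETn. Medians at this floor, here and below, leave out integrants with 3 reads or fewer in both groups, which can show no rise. These were 75, 25 and 65 of the 613 ETnERV and 16, 6 and 24 of the 493 MMETn integrants in WT, DNMT TKO and TET TKO.

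The called lists overlapped between genotypes, which share no library in these comparisons. In ETnERV, 309 integrants were called higher in both WT and DNMT TKO (85.1% of the WT and 75.4% of the DNMT TKO list), and 315 in both WT and TET TKO (86.8% and 77.6%). For MMETn the numbers were 257 (85.4% and 82.1%) and 266 (88.4% and 81.6%). Over all 3 genotypes, 279 ETnERV and 235 MMETn integrants were called higher each time, while 114 and 103 of those tested were called higher in none. Together these are 46.5% and 19.6% of the 1106 tested members, beside 6.43% and 77% of all tested repeats. Of all tested repeats, 7.72% were called higher in both WT and DNMT TKO and 8.8% in both WT and TET TKO, which is 63.7% and 72.6% of the WT list. Leaving out the DNMT TKO shKap1 library of replicate 1 gave 364 ETnERV and 271 MMETn calls in DNMT TKO.

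The rises with the most extreme values began from 0 or a few reads. An MMETn integrant with an ERVB7_2B-LTR_MM end at chr17:15773733-15776854 had 0 reads in the 3 WT shEmpty libraries and 13.7, 8.44 and 7.68 CPM with shKap1, which is at least 245-fold higher when 3 reads are set for the silent group. In DNMT TKO it stood at 0.0508, 0.207 and 0.116 against 21.3, 8.32 and 9.12 CPM, and in TET TKO at 0 and 0.0376 against 5.60 and 4.67 CPM. A complete integrant with the same LTR type, chr9:4079171-4084541, went from 0.0555, 0.0356 and 0 CPM to 34.9, 28.2 and 27.9 CPM in WT, a ratio of 1123 with a 95% counting interval of 310.5 to 9280, since only 2 reads stand on the lower side. In DNMT TKO it went from 0.305, 0.138 and 0.154 to 46.7, 25.0 and 27.5 CPM, and in TET TKO from 0.0352 and 0.338 to 43.1 and 40.6 CPM. Both overlapped KAP1 and H3K9me3 regions. Across MMETn with this LTR, 24, 25 and 23 of 31 tested integrants were called higher in WT, DNMT TKO and TET TKO, with a median at the floor of 3.82, 4.11 and 3.79 on the log2 scale.

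Among ETnERV, the short row chr13:67339703-67340360 had 0 reads in WT shEmpty and 9.33, 9.79 and 8.90 CPM with shKap1, at least 232-fold higher. It lies inside a longer ETnERV row and near Zfp458, a zinc finger gene that rose by 1.15 (SE 0.19) in WT, 1.23 (SE 0.21) in DNMT TKO and 0.81 (SE 0.26) in TET TKO. In DNMT TKO the same row had 0, 0.0345 and 0.0771 CPM and then 0.144, 0.799 and 0.111, while TET TKO gave 0.247 and 0.225 and then 15.2 and 14.2 CPM. At chr15:37764973-37765654, levels went from 0 in each WT library to 2.57, 4.20 and 3.25 CPM, from 0.0508, 0.0345 and 0.270 to 13.4, 12.4 and 12.7 in DNMT TKO and from 0 to 6.06 and 5.54 in TET TKO. At chr3:93659357-93661214, near Tdpoz3, they went from 0, 0.0356 and 0 to 4.09, 4.24 and 4.53 CPM in WT, from 0, 0.0345 and 0.0386 to 2.07, 1.22 and 1.89 in DNMT TKO and from 0 to 7.13 and 7.19 in TET TKO, where the change was at least 131-fold. Tdpoz3 itself rose by 4.39 (SE 0.23), 3.51 (SE 0.26) and 6.76 (SE 0.30) on the log2 scale.

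The MMETn pair chr15:38900413-38902967 and chr15:38903114-38905274, neighbouring pieces within 6 kb of the start of Cthrc1, a gene for a secreted collagen-related protein, also started from 0. The first went from 0 to 1.15, 0.563 and 0.959 CPM in WT, from 0.0508, 0 and 0 to 4.18, 0.988 and 1.63 in DNMT TKO and from 0 to 2.18 and 1.85 in TET TKO. Cthrc1 rose by 6.33, 5.88 and 6.02 on the log2 scale. Whether integrant and gene share transcripts was not tested.

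Falls were few. The ETnERV-int integrant chr16:25521438-25523355, between genes and outside KAP1 and H3K9me3 regions, stood at 26.2, 27.5 and 30.04 CPM in WT shEmpty and 11.1, 7.92 and 8.79 in shKap1 (log2 change -1.59, SE 0.14, adjusted p = 2.4e-27). Directly upstream, the MMETn row chr16:25517820-25521423 stood at 41.1, 52.8 and 17.8 and at 5.61, 2.73 and 4.58 CPM (-3.12, SE 0.75, adjusted p = 0.017). The latter call was lost without WT shEmpty replicate 2, shKap1 replicate 2 or shKap1 replicate 3 (adjusted p 0.058 to 0.079). A pair of ETnERV2-int rows in 4930526L06Rik, chr19:11368339-11369623 and chr19:11372895-11374113, fell in WT by 2.00 (SE 0.35) and 1.77 (SE 0.26) on the log2 scale, beside a fall of the gene by 1.31 (SE 0.24), whose transcripts run in the same direction. The MMETn integrant chr6:133959226-133964740 stood at 25.8, 15.9 and 1.77 CPM in DNMT TKO shEmpty and 4.13, 1.32 and 2.04 in shKap1. Its fall was 2.54 on the log2 scale (SE 0.75, adjusted p = 0.043), and it was lost with the replicate number as a block (-2.36, adjusted p = 0.065), as in most fits without 1 library.

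**Figure D2:**
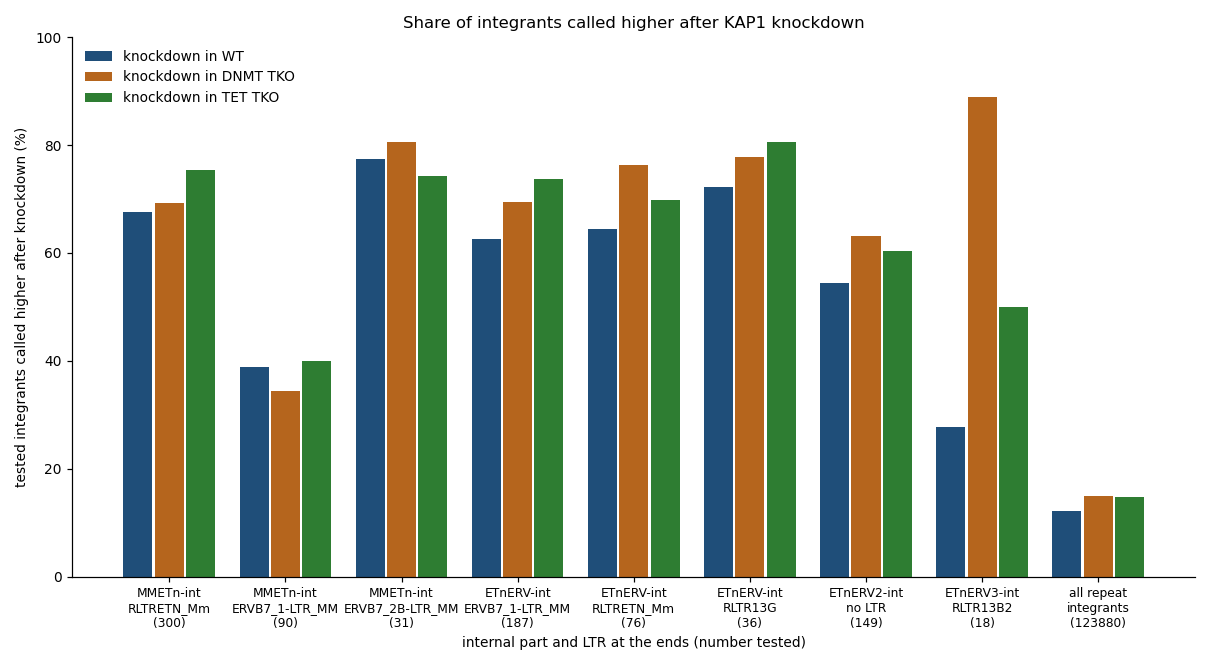
Percent of tested integrants called higher with shKap1 in WT, DNMT TKO and TET TKO, as bars from 0, for 8 groups of integrants by internal part and LTR end and for all repeat integrants. MMETn with ERVB7_1-LTR_MM (38.9%, 34.4% and 40.0%) stands below MMETn with RLTRETN_Mm (67.7%, 69.3% and 75.3%), and ETnERV3-int with RLTR13B2 at 27.8%, 88.9% and 50.0%; the background is 12.1%, 15% and 14.7%.

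Calls were counted by the LTR at the 3′ end. MMETn integrants ending in RLTRETN_Mm, an LTR named for ETn elements (300 tested of 339), were called higher in 203, 208 and 226 cases in WT, DNMT TKO and TET TKO. Of MMETn integrants ending in ERVB7_1-LTR_MM (90 tested of 105), 35, 31 and 36 were. Summed over each group, RLTRETN_Mm MMETn went from 1037 ± 65.0 to 3040 ± 111 CPM in WT, from 473 ± 37.4 to 2143 ± 631 in DNMT TKO and from 852 ± 25.5 to 3329 ± 82.1 in TET TKO. ERVB7_1-LTR_MM MMETn stood at 597 ± 17.2 and 664 ± 73.0 CPM in WT, with overlapping libraries, at 816 ± 51.5 and 799 ± 219 in DNMT TKO, also overlapping, and at 283 ± 13.3 and 609 ± 33.5 in TET TKO, where they did not overlap.

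The log2 ratio of RLTRETN_Mm to ERVB7_1-LTR_MM MMETn reads lay at 0.76 to 0.85 in WT shEmpty, at -0.999 to -0.664 in DNMT TKO shEmpty and at 1.57 to 1.61 in TET TKO shEmpty libraries. With shKap1 it lay at 2.02 to 2.35, 1.35 to 1.46 and 2.42 to 2.48. These are given as a description, since this pair of groups was picked from among several. With the same LTR beside another internal part, ETnERV-int ending in ERVB7_1-LTR_MM (187 tested of 226) had 117, 130 and 138 integrants called higher, and their sum went from 267 ± 48.3 to 746 ± 22.8 CPM in WT, from 330 ± 22.6 to 838 ± 226 in DNMT TKO and from 123 ± 19.6 to 603 ± 6.48 in TET TKO.

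**Figure D3:**
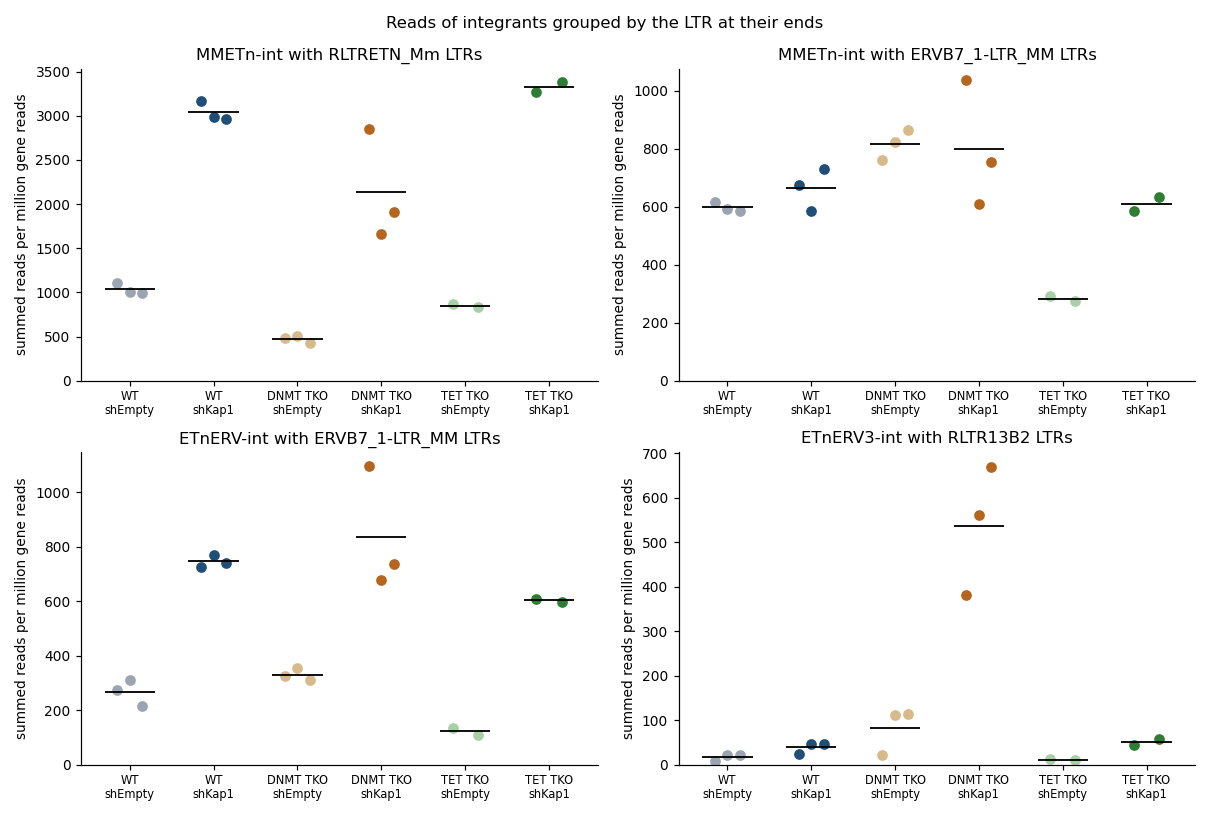
Summed level by LTR end in every RNA library, in CPM on linear axes that start at 0; points are libraries and lines group means, for MMETn with RLTRETN_Mm, MMETn with ERVB7_1-LTR_MM, ETnERV-int with ERVB7_1-LTR_MM and ETnERV3-int with RLTR13B2. In TET TKO shEmpty, MMETn with ERVB7_1-LTR_MM lies at 274 to 292 CPM, below the 584 to 616 of WT, and ETnERV3-int with RLTR13B2 reaches 380 to 669 CPM in DNMT TKO shKap1.

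Solitary RLTRETN_Mm LTRs, rows of that name with no internal part, give the LTR alone. Only 70 of 768 reached 16 reads, of which 12, 20 and 10 were called higher and 5, 1 and 2 lower in WT, DNMT TKO and TET TKO. The 17.1%, 28.6% and 14.3% called higher stand beside 12.1%, 15% and 14.7% of all tested integrants. Their summed reads fell in WT (-0.74, SE 0.14, adjusted p = 2.1e-04) and rose in DNMT TKO (0.41, adjusted p = 0.018) and TET TKO (0.40, adjusted p = 0.048).

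KAP1-bound and H3K9me3-marked regions, which the study took from earlier data and over which its 5hmC reads were counted, covered part of the families. KAP1 regions overlapped 54.5% of ETnERV-int (95% exact interval 50.2 to 58.7), 15.4% of ETnERV2-int, 41.4% of ETnERV3-int and 51.3% of MMETn rows (47.3 to 55.3) by at least 1 bp. H3K9me3 regions overlapped 43.3%, 15.6%, 20.5% and 38.1%. Of MMETn, 180 rows overlapped both, 138 KAP1 alone, 56 H3K9me3 alone and 246 neither, and of ETnERV, 358, 243, 129 and 1339. H3K4me3, the mark of active promoters in WT shEmpty cells, overlapped 7.89% of ETnERV-int and 13.4% of MMETn rows in both ChIP replicates, and H3K27me3, the Polycomb mark, 0.323% of MMETn. MMETn ending in ERVB7_1-LTR_MM carried H3K4me3 in 40.0% of 105 rows. Intervals cover counting error alone.

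In summed reads, integrants in such regions rose by more than the others. The shares called higher only describe the tested lists, since an integrant could enter them through its shKap1 reads alone. Among all tested repeat integrants, 12.1%, 15% and 14.7% were called higher in WT, DNMT TKO and TET TKO. Of tested ETnERV integrants that overlapped KAP1, 229 of 328 (69.8%) were called higher in WT against 134 of 285 (47.0%) elsewhere. In DNMT TKO it was 245 (74.7%) against 165 (57.9%), and in TET TKO 246 (75.0%) against 160 (56.1%). For H3K9me3 the counts were 223 of 295 (75.6%) against 140 of 318 (44.0%) in WT, 242 (82.0%) against 168 (52.8%) in DNMT TKO and 235 (79.7%) against 171 (53.8%) in TET TKO. As a test over libraries, the log2 ratio of ETnERV reads in KAP1-overlapping to other integrants rose by 1.34 on average (1.25, 1.11 and 1.65 in WT, DNMT TKO and TET TKO) and that for H3K9me3 by 1.81 (1.90, 1.53 and 1.99). In MMETn these ratios rose by 1.01 (1.13, 0.87 and 1.04) and 1.99 (1.89, 2.39 and 1.68). Each of these 4 ratios gave p = 0.000833 in the exact permutation test, the smallest it allows, and 0.000972 adjusted.

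In MMETn, the summed reads of integrants with an LTR part rose by less than those of pieces without one. The ratio of the first sum to the second fell by 2.06 on the log2 scale in MMETn (2.20, 2.16 and 1.81 in WT, DNMT TKO and TET TKO, exact permutation p = 0.000833). In ETnERV the changes were -1.07, -0.85 and +0.08, with a mean of -0.61 (exact permutation p = 0.00667). The second MMETn sum was small, the log2 ratio being 8.67 to 8.90 in WT shEmpty. By integrant, MMETn medians at the floor gave no single order. They were 2.29, 2.11 and 2.33 without an LTR end and 2.09, 2.24 and 2.54 with RLTRETN_Mm. With ERVB7_1-LTR_MM they were 1.42, 0.87 and 1.67, with RLTR13G 1.87, 2.66 and 1.84, and with ERVB7_2B-LTR_MM 3.82, 4.11 and 3.79.

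The marks are given as shares of each list, as a description. ETnERV integrants called higher in WT (n = 363) overlapped KAP1 in 63.1%, H3K9me3 in 61.4% and H3K4me3 in 2.48% of cases, tested integrants not called higher (n = 250) in 39.6%, 28.8% and 14.8%, and rows under 16 reads (n = 1456) in 18.8%, 13.2% and 0.893%. In MMETn the shares were 68.8%, 53.2% and 8.31% of 301 called, 41.1%, 28.1% and 28.1% of 192 not called and 25.2%, 17.3% and 3.15% of 127 with fewer reads. The 15 MMETn integrants with the stretch TGGCGCCAGAACTGGGAC all carried H3K4me3, and 3, 1 and 6 of them were called higher in WT, DNMT TKO and TET TKO. With TGGCGCCCGAACAGGGAC, 7 of 8 carried it, and 78.6% of all 28 MMETn integrants with this LTR at both ends and a sequence. The 41 ETnERV integrants with TGGCGCCAGAACTGGGAC carried H3K4me3 in 9.76%, and 29, 33 and 34 of 39 tested were called higher.

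Without knockdown, integrants of both families stood higher or lower in the mutants than in WT. For DNMT TKO against WT, with 3.48% of all tested integrants higher and 6.45% lower (9.93% either way), 69 ETnERV integrants were called higher and 28 lower, and 38 and 36 MMETn integrants. For TET TKO against WT, with 1.74% higher and 2.33% lower (4.08% either way), the counts were 37 and 49 in ETnERV and 25 and 45 in MMETn. With 1 library left out, the counts lower in TET TKO went down to 28 in ETnERV and 28 in MMETn. The 2 contrasts share the WT libraries. Summed ETnERV reads were lower in TET TKO than in WT by 0.75 on the log2 scale (SE 0.16, adjusted p = 0.0085), a call lost without the TET TKO shEmpty library of replicate 2 (-0.66, adjusted p = 0.070), and did not differ past the threshold in DNMT TKO (0.34, SE 0.14, adjusted p = 0.10). The latter passed without the DNMT TKO shEmpty library of replicate 1 (0.48, adjusted p = 0.024). MMETn sums did not pass in DNMT TKO (-0.33, adjusted p = 0.13) or in TET TKO (-0.50, adjusted p = 0.085). Both passed without the DNMT TKO shKap1 library of replicate 1 (-0.32, adjusted p = 3.7e-05, and -0.50, adjusted p = 4.8e-07), and the second also without that of replicate 2 (-0.50, adjusted p = 0.018).

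In TET TKO the lower ETnERV level was that of ETnERV-int (sum -1.10, SE 0.22, adjusted p = 0.0055), where 44 integrants were called lower and 11 higher. Of ETnERV-int ending in ERVB7_1-LTR_MM, 37 were called lower and 2 higher, and of MMETn with that LTR 13 and 2. In MMETn with RLTRETN_Mm the counts were 31 lower and 17 higher. Of integrants with the 2 most frequent stretches of ERVB7_1-LTR_MM elements, 20 of 54 tested with TGGCGCCAGAACTGGGAC and 6 of 17 with TGGCGCCCGAACAGGGAC were called lower in TET TKO. In direct comparison of the mutants, with 3.39% of all tested integrants higher and 2.46% lower in TET TKO than in DNMT TKO (5.85% either way), 43 ETnERV-int with ERVB7_1-LTR_MM were lower and 4 higher, and 22 and 4 of MMETn with that LTR.

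In DNMT TKO, 22 ETnERV3-int integrants of 73 tested were called higher and 1 lower, and its sum was higher by 1.88 (SE 0.45, adjusted p = 0.0080). The shEmpty levels were 34.9, 122 and 126 CPM in DNMT TKO, 16.2, 29.1 and 31.6 in WT and 25.9 and 26.1 in TET TKO, so that the first DNMT TKO library lay close to the highest WT library. Of ETnERV3-int ending in RLTR13B2 (18 tested of 24), 12 were called higher in DNMT TKO, and 5, 16 and 9 rose on knockdown in WT, DNMT TKO and TET TKO. The RLTR13B2 sum stood at 22.8, 111 and 113 CPM in DNMT TKO shEmpty and 380, 562 and 669 CPM in shKap1, against 24.7, 46.0 and 47.0 CPM in WT shKap1. A single integrant supplied 58.7% to 73.2% of this sum in DNMT TKO shEmpty and 68.0% to 84.0% in WT shEmpty. Without that integrant the sum was 28.2 ± 18.7 with shEmpty and 311 ± 51.2 CPM with shKap1 in DNMT TKO, and 4.23 ± 2.11 and 20.9 ± 6.74 CPM in WT.

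With 1 integrant of many reads left out, the ETnERV3-int sum exceeded that of WT by 1.68 in DNMT TKO (SE 0.31, adjusted p = 0.0021), and it rose on knockdown by 2.06, 3.17 and 2.21 in WT, DNMT TKO and TET TKO (SE 0.32, 0.31 and 0.38). Some integrants of this type were nearly silent in WT. At chr12:89338540-89345451, levels were 0, 0.0356 and 0.106 CPM in WT shEmpty and 0.0524, 0.0433 and 0.0533 in shKap1, 0.559, 1.93 and 1.85 and then 10.5, 15.4 and 18.1 in DNMT TKO, and 0.0705 and 0.0751 and then 0.926 and 3.64 in TET TKO. Its level in DNMT TKO shEmpty exceeded that in WT by 4.67 on the log2 scale (SE 0.47, adjusted p = 5.4e-15). The ETnERV3-int rows chr12:17927027-17928678 and chr10:14572532-14574373 had 0 reads in WT shEmpty and were at least 22.6-fold and at least 21.9-fold higher in DNMT TKO.

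MMETn integrants also parted by genotype without knockdown. The one with the most reads, chr1:154925062-154930509, an RLTRETN_Mm element antisense within Nmnat2, stood at 85.4, 89.5 and 99.6 CPM in WT, 12.5, 10.4 and 13.2 in DNMT TKO and 47.4 and 52.4 in TET TKO. With shKap1 it reached 271, 257 and 263, 117, 72.8 and 102, and 209 and 201 CPM. It was thus lower in DNMT TKO (-2.92, SE 0.12) and rose there by 3.01 against 1.53 in WT, a difference of 1.48 (SE 0.16, adjusted p = 9.2e-17). The element chrY_random:2331172-2338239, on an unplaced piece of the Y chromosome, stood at 0.777, 0.711 and 0.566 CPM in WT, 25.2, 21.3 and 44.7 in DNMT TKO and 0.388 and 0.413 in TET TKO (DNMT TKO over WT 5.48, SE 0.22).

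In TET TKO the ETnERV-int row chr4:124030303-124032239 stood at 49.7 and 34.8 CPM, against 0.555, 0.391 and 0.566 in WT and 1.02, 0.760 and 0.925 in DNMT TKO (TET TKO over WT 6.39, SE 0.23). Kap1 knockdown did not change it past the threshold in any genotype (42.9 and 22.2 CPM in TET TKO shKap1). It overlapped H3K4me3 but neither KAP1 nor H3K9me3. The MMETn rows chr13:3484008-3484773 and chr13:3485329-3488292 stood at 3.07 and 3.19 and at 6.20 and 6.05 CPM in TET TKO shEmpty, against no more than 0.0711 and 0.212 in WT. They lie in exons of 2810429I04Rik on the same strand and share its reads, and that gene was higher in TET TKO by 5.90 and rose on knockdown by 7.52 in WT.

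Knockdown effects differed between genotypes for a minority of integrants. The effect in DNMT TKO was called larger than in WT for 18 ETnERV and 29 MMETn integrants (1.33% of all) and smaller for 25 and 29 (0.473% of all), beside the Trim28 residual given above. In TET TKO it was larger for 25 and 24 (0.831% of all) and smaller for 12 and 12 (0.243% of all), where 1.07% of all integrants were called either way. Directly between the mutants, it was larger in TET TKO for 26 and 40 (0.863% of all) and smaller for 8 and 25 (0.401% of all). With 1 library left out, the integrants called either way for TET TKO against WT went down to 20 ETnERV and 19 MMETn. Between the mutants they went down to 21 ETnERV and 49 MMETn. By type, the effect in TET TKO was called larger than in WT for 18 of the 187 tested ETnERV-int integrants with ERVB7_1-LTR_MM.

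Summed ETnERV rose by more in TET TKO than in WT, by 0.83 (SE 0.23, adjusted p = 0.034), and than in DNMT TKO, by 0.77 (SE 0.23, adjusted p = 0.048). Both calls were marginal. With the replicate number as a block they were 0.82 (adjusted p = 0.050) and 0.77 (adjusted p = 0.071), with library sizes from repeat counts 0.67 (adjusted p = 0.095) and 0.67 (adjusted p = 0.10), and each lost its call in 9 of 16 fits that left out 1 library. Without the ETnERV integrant with the most reads, the second was 0.83 (SE 0.25, adjusted p = 0.053). ETnERV-int alone gave 1.06 (SE 0.31, adjusted p = 0.040) and 1.29 (SE 0.31, adjusted p = 0.016). MMETn gave 0.61 (SE 0.24, adjusted p = 0.13) over WT, and 0.59 (adjusted p = 0.16) over DNMT TKO. Without the DNMT TKO shKap1 library of replicate 1, both MMETn values passed (0.61, adjusted p = 9.8e-06, and 0.88, adjusted p = 6.8e-08), and without that of replicate 2 the first passed (0.62, adjusted p = 0.038). Both also passed with DESeq2 (0.61, adjusted p = 0.027, and 0.63, adjusted p = 0.026). The difference of DNMT TKO from WT was 0.05 for ETnERV (adjusted p = 0.93) and 0.02 for MMETn (adjusted p = 0.97). The shEmpty level of a genotype enters its effect, so that a larger effect need not mean a higher shKap1 level. Summed ETnERV stood at 436, 551 and 260 CPM in WT, DNMT TKO and TET TKO with shEmpty. With shKap1 it stood at 1517, 1989 and 1605 CPM. ETnERV-int stood at 373 CPM in WT and 174 in TET TKO with shEmpty, and at 1220 and 1190 with shKap1.

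Some integrants rose in WT and TET TKO but little in DNMT TKO. The complete ETnERV-int element chr14:19086562-19090526, whose LTR start is shown above and whose LTRs are identical, went from 0.222, 0.356 and 0.318 to 41.6, 50.2 and 41.7 CPM in WT and from 0.106 and 0.113 to 31.8 and 32.7 in TET TKO, but from 0.609, 0.414 and 0.424 to 1.83, 2.35 and 1.48 CPM in DNMT TKO (difference from WT -5.18, SE 0.34, adjusted p = 9.8e-29). The MMETn element chr12:18466380-18472077 went from 0.222, 0.142 and 0.142 to 29.3, 20.9 and 21.7 CPM in WT and from 0.634 and 0.376 to 30.6 and 29.5 in TET TKO, but from 0.305, 0.0345 and 0.0386 to 0.672, 0.329 and 0.260 in DNMT TKO (-5.30, SE 0.62, adjusted p = 6.2e-07), a call lost without the DNMT TKO shEmpty library of replicate 1 (-3.89, adjusted p = 0.26). The MMETn row chr8:87686829-87687743 reached 5.56, 4.94 and 5.60 CPM in WT shKap1 and 2.04 and 2.77 in TET TKO shKap1, with 1 read in the 3 DNMT TKO shKap1 libraries, and its difference between DNMT TKO and WT lost its call in 5 of 16 fits without 1 library. Whether the DNMT TKO line carries these copies was not measured.

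Others rose in both mutants and changed little in WT, or rose by more in TET TKO than in DNMT TKO. The rows chr11:83045720-83047853 and chr11:83047852-83051161, the latter MMETn, overlap end to end. The first stood at 6.33, 3.95 and 3.64 CPM in WT shEmpty and 11.3, 4.85 and 5.17 in shKap1, but went from 0.102, 0.069 and 0 to 8.93, 2.96 and 3.71 in DNMT TKO and from 0.106 and 0.150 to 4.31 and 4.16 in TET TKO. In both mutants its shEmpty level was thus lower than in WT (-6.28, SE 0.57, and -5.12, SE 0.58). Nearby AI662270 showed -2.13 and -1.29 for the same contrasts. Adjacent ETnERV2-int rows at chr1:92784024-92785970 and chr1:92786118-92788189 had 0 reads in TET TKO shEmpty and 5.51 and 6.36, and 2.55 and 2.21 CPM in shKap1. In DNMT TKO the first went from 0.305, 0.449 and 0.386 to 1.97, 1.08 and 1.56 CPM, so that it rose at least 108-fold in TET TKO and by 1.98 on the log2 scale (SE 0.32) in DNMT TKO. Both rows also rose in WT. The first went there from 2, 0 and 2 reads with shEmpty to 69, 61 and 60 with shKap1, and the second from 4, 0 and 0 to 35, 32 and 21.

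Integrants that responded in opposite ways in DNMT TKO and TET TKO were sought in 3 ways: a knockdown effect that differed from WT in opposite directions, a knockdown that itself went in opposite directions, and a shEmpty level that differed from WT in opposite directions. The first gave 4 integrants, the second 1 and the third 15, in all 18 different integrants, or 1.63% of the 1106 tested. The direct contrast between the mutants was called for each, but it spans both called differences and was thus largely fixed by these rules. Over all 123880 tested repeats the numbers were 34, 37 and 128 (0.0274%, 0.0299% and 0.103%), and 0.156% met any of the 3 rules. Without the DNMT TKO shKap1 library of replicate 1 the numbers were 5, 2 and 16, and limma-voom called 2 of the first and 8 of the third kind. When compared with WT, both mutants are set against the same WT libraries. The shEmpty libraries enter both the first and the third way, so that an integrant met by both is not 2 separate results. By end, 4 of the 15 were ETnERV-int with ERVB7_1-LTR_MM, 4 MMETn with ERVB7_1-LTR_MM, 5 MMETn with RLTRETN_Mm and 2 ETnERV2-int without an LTR. For 10 of the 15 the level was higher in DNMT TKO and lower in TET TKO, and for 5 the reverse.

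All 4 integrants of the first kind rose by less in DNMT TKO and by more in TET TKO than in WT. The ETnERV-int element chr4:19076593-19084076, 7484 bp long, with LTRs identical over the 300 bases compared and an open reading frame of 790 codons, stood at 0.666, 0.783 and 0.637 CPM in WT shEmpty and 5.14, 5.98 and 6.45 in shKap1. In DNMT TKO it stood at 9.34, 9.08 and 7.403 and then 22.6, 20.7 and 17.8 CPM, and in TET TKO at 0.141 and 0.150 and then 4.54 and 5.34 CPM. Its knockdown effect was 1.82 smaller in DNMT TKO than in WT on the log2 scale (fitted difference -1.82, SE 0.28, adjusted p = 6.4e-08) and 1.97 larger in TET TKO (SE 0.44, adjusted p = 0.0073), with 3.79 (SE 0.39) between the mutants. Its shEmpty level was higher in DNMT TKO (3.61, SE 0.22) and lower in TET TKO (-2.22, SE 0.38) than in WT. The same shEmpty libraries enter the knockdown effects, so that the differences in level and in effect are not separate results. With shKap1 its TET TKO libraries, at 4.54 and 5.34 CPM, lay near those of WT, at 5.14 to 6.45 CPM.

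The MMETn element chr4:146918667-146924147, 3239 bp from the start of the zinc finger gene Gm13154, stood at 8.27, 5.23 and 3.82 CPM in WT shEmpty and 23.5, 18.1 and 21.1 in shKap1, at 13.9, 12.1 and 12.3 and then 27.9, 17.1 and 17.1 in DNMT TKO, and at 4.05 and 3.45 and then 59.6 and 63.0 in TET TKO. Thus TET TKO shKap1 was the highest group and TET TKO shEmpty among the lowest. The effect differed from WT by -1.17 (SE 0.22, adjusted p = 2.0e-05) and 2.16 (SE 0.25, adjusted p = 1.6e-14). Gm13154 rose by 1.62, 0.67 and 0.95 on the log2 scale in WT, DNMT TKO and TET TKO. The other two are given after their values were seen. At chr10:24574321-24579921, MMETn with ERVB7_1-LTR_MM, levels went from 3.00, 2.56 and 1.95 to 23.9, 26.4 and 34.2 CPM in WT, from 3.96, 3.69 and 4.90 to 27.7, 23.0 and 16.02 in DNMT TKO and from 1.09 and 1.39 to 40.0 and 32.03 in TET TKO (differences from WT -1.09, SE 0.23, and 1.36, SE 0.27). At chr13:23262030-23269100, of the same type, they went from 5.39, 4.84 and 5.55 to 16.8, 15.2 and 14.8, from 11.1, 16.9 and 8.33 to 23.4, 13.8 and 14.9 and from 1.45 and 1.58 to 9.63 and 10.6 CPM (-1.05, SE 0.24, and 1.17, SE 0.28). All 4 overlapped KAP1 and H3K9me3 regions.

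The single integrant whose knockdown response was called in opposite directions in DNMT TKO and TET TKO was chr9:7798967-7805186, an MMETn element with identical ERVB7_1-LTR_MM LTRs and 35220 reads, 30069 bp from the start of Birc2. It stood at 165, 128 and 69.0 CPM in WT shEmpty and 95.7, 54.0 and 80.8 in shKap1, with overlapping libraries. In DNMT TKO it fell from 136, 207 and 194 to 92.5, 54.3 and 70.0 CPM (log2 change -1.31, SE 0.34, adjusted p = 0.023), and in TET TKO it rose from 15.8 and 18.5 to 56.1 and 66.9 CPM (1.84, SE 0.43, adjusted p = 0.012). The mutants differed by 3.15 (SE 0.55, adjusted p = 0.019). With shKap1 the 3 genotypes thus lay at 54.0 to 95.7 CPM, and with shEmpty TET TKO lay below every other library. It overlapped H3K4me3 and neither KAP1 nor H3K9me3. The fall in DNMT TKO lost its call without replicate 2 or 3 of either hairpin in DNMT TKO (adjusted p 0.065 to 0.087), and the rise in TET TKO without either TET TKO shEmpty library or shKap1 replicate 2 (adjusted p 0.060 to 0.104). The difference between the mutants was lost without DNMT TKO shEmpty replicate 2 or 3, either TET TKO shEmpty library or TET TKO shKap1 replicate 2 (adjusted p 0.052 to 0.127). With limma-voom neither the rise in TET TKO (1.83, SE 1.91, adjusted p = 0.64) nor the difference between the mutants (3.34, SE 1.95, adjusted p = 0.49) passed.

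Between WT and TET TKO, 1 MMETn row was called in opposite directions (0.0404% of all tested repeats were), the 770 bp row chr5:89632802-89633571, antisense within Slc4a4, a gene for a bicarbonate transporter, and inside a longer row. It stood at 1.83, 2.99 and 1.98 CPM in WT shEmpty and 1.05, 0.866 and 0.959 in shKap1, at 1.55 and 2.07 and then 4.49 and 3.54 CPM in TET TKO, and at 0.305, 0.552 and 0.463 and then 0.961, 0.517 and 0.222 CPM in DNMT TKO. It thus fell in WT (-1.26, SE 0.28, adjusted p = 1.3e-04) and rose in TET TKO (1.15, SE 0.30, adjusted p = 0.0016), with a difference of 2.41 (SE 0.42, adjusted p = 5.4e-06). The fall came to -0.998 without WT shEmpty replicate 2, just under 2-fold, and the rise lost its call without TET TKO shEmpty replicate 1 (adjusted p = 0.091) or shKap1 replicate 1 (adjusted p = 0.075). The rise also lost its call with DESeq2 (1.17, adjusted p = 0.066) and with library sizes from repeat counts (0.93, under 2-fold). It overlapped H3K4me3 and neither KAP1 nor H3K9me3.

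**Figure D4:**
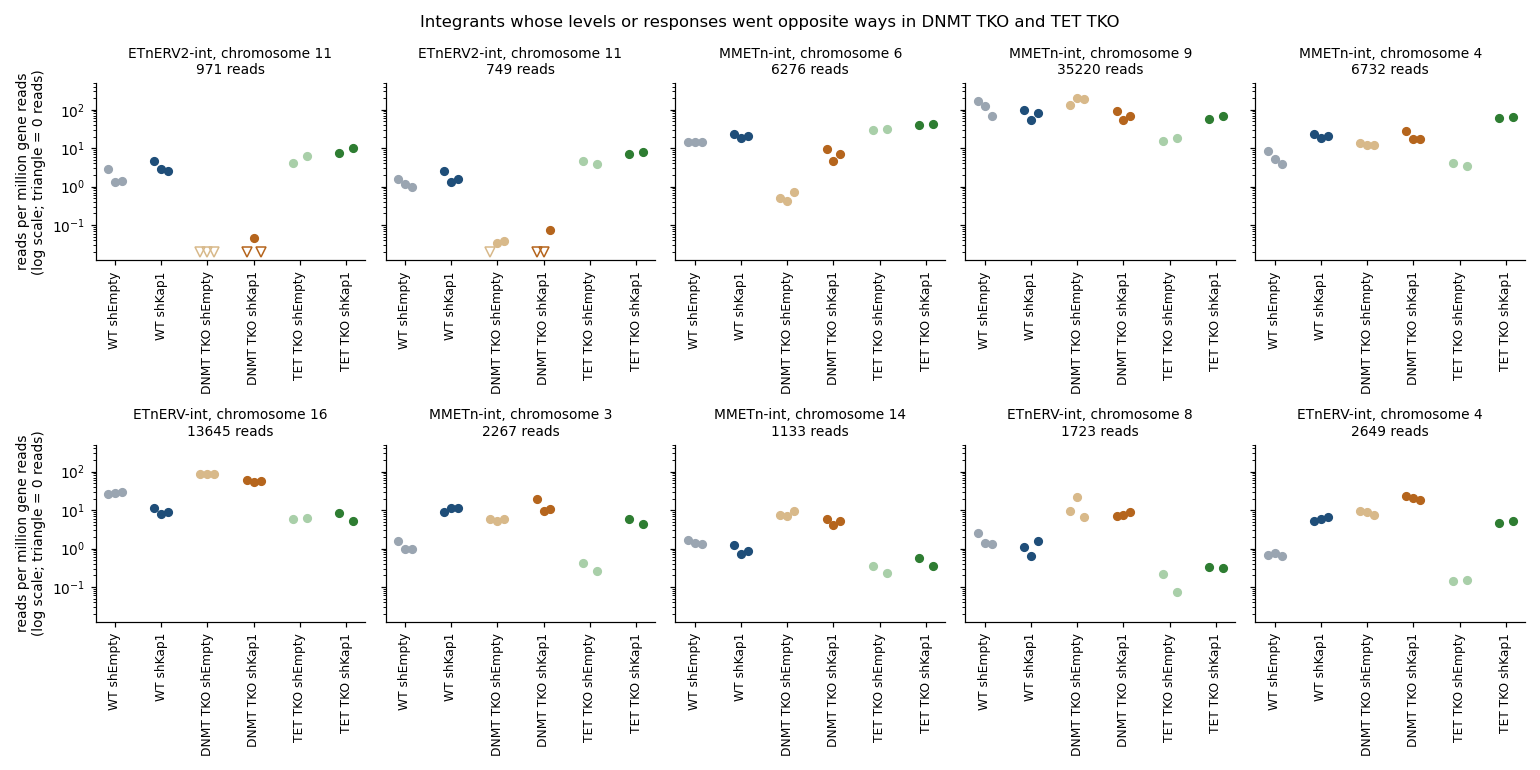
Level of 10 integrants with opposite responses in the mutants in every RNA library, in CPM on a log axis, with triangles for libraries with 0 reads; columns are the 3 genotypes with shEmpty and shKap1. The element chr9:7798967-7805186 falls in DNMT TKO and rises in TET TKO, and chr6:127464047-127470987 is at 0.414 to 0.733 CPM in DNMT TKO shEmpty against 29.9 to 31.5 in TET TKO.

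Of the integrants whose shEmpty level moved in opposite ways, 5 were lower in DNMT TKO and higher in TET TKO. The MMETn element chr6:127464047-127470987, with identical RLTRETN_Mm LTRs, stood at 14.6, 14.9 and 14.1 CPM in WT, 0.508, 0.414 and 0.733 in DNMT TKO and 29.9 and 31.5 in TET TKO (-4.71, SE 0.20, and 1.08, SE 0.17 against WT). With shKap1 the levels were 23.5, 18.4 and 21.3, 9.37, 4.66 and 6.86, and 40.7 and 43.0 CPM, so that the knockdown brought it up by 3.65 (SE 0.20) in DNMT TKO alone past 2-fold. It was marked by H3K4me3 and lay outside KAP1 and H3K9me3 regions. The adjacent ETnERV2-int rows chr11:5596906-5599007 and chr11:5599135-5599795, neighbouring pieces on the same strand, stood at 2.83, 1.28 and 1.38 and at 1.55, 1.17 and 0.955 CPM in WT. In DNMT TKO the first had 0 reads with shEmpty and 1 read with shKap1, at least 42.1-fold lower than WT with shEmpty, and in TET TKO it stood at 4.09 and 6.35 CPM (1.55 over WT, SE 0.25). The second stood at 0, 0.0345 and 0.0386 CPM in DNMT TKO and 4.69 and 3.91 in TET TKO.

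The remaining 2 of these 5 were both MMETn. The RLTRETN_Mm element chr13:67785452-67787800 stood at 0.111, 0.0711 and 0.106 CPM in WT, had 0 reads in the 3 DNMT TKO libraries and stood at 1.30 and 1.01 CPM in TET TKO. With shKap1 it reached 1.57, 1.95 and 1.81 CPM in WT, 1.15, 0.846 and 0.927 in DNMT TKO and 5.00 and 5.49 in TET TKO. It overlaps an exon of Zfp738 on the same strand, so that reads of the gene may be counted for it. Zfp738 itself had 12.1 to 14.9 CPM in WT shEmpty and 10.1 to 11.6 in DNMT TKO, and differed from WT by -0.27 in DNMT TKO (SE 0.10) and by 0.50 in TET TKO (SE 0.11). The other, named after its values were seen, was chr16:81747805-81753319. It stood at 1.06, 1.42 and 1.27 CPM in WT, 0.660, 0.414 and 0.386 in DNMT TKO and 4.48 and 4.39 in TET TKO, and rose on knockdown in all 3 (3.37, 3.78 and 2.17, SE 0.21, 0.23 and 0.23). This element overlapped H3K4me3 and neither KAP1 nor H3K9me3.

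Among the 10 that were higher in DNMT TKO and lower in TET TKO, the ETnERV-int row chr16:25521438-25523355, already described for its fall in WT, stood at 26.2, 27.5 and 30.04 CPM in WT, 87.8, 86.7 and 86.6 in DNMT TKO and 5.71 and 6.23 in TET TKO (1.64, SE 0.14, and -2.22, SE 0.17). With shKap1 the levels were 11.1, 7.92 and 8.79, 59.5, 54.5 and 55.6, and 8.43 and 5.13 CPM. The ETnERV-int element chr8:80663654-80671130, with identical LTRs and a reading frame of 777 codons, stood at 2.55, 1.35 and 1.31 CPM in WT, 9.19, 21.4 and 6.55 in DNMT TKO and 0.211 and 0.0751 in TET TKO (2.87, SE 0.28, and -3.50, SE 0.49), and its knockdown effect passed in no genotype. This element overlapped KAP1, H3K9me3 and H3K4me3 regions all the same. The MMETn element chr3:135432517-135438120 stood at 1.61, 0.961 and 0.955, 5.74, 5.08 and 5.86, and 0.423 and 0.263 CPM, and with shKap1 at 8.81, 11.2 and 11.4, 19.9, 9.50 and 10.6, and 5.97 and 4.26 CPM. The short MMETn row chr14:9575818-9576421, inside a longer one, stood at 1.67, 1.35 and 1.27, 7.52, 6.87 and 9.52, and 0.352 and 0.225 CPM (2.49, SE 0.23, and -2.26, SE 0.35).

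The other integrants of this kind, named after their values were seen, were chr4:19076593-19084076 and chr13:23262030-23269100, given above, chr7:97561768-97567279, chr3:35312496-35318037, chr7:26354702-26360209 and chrY_random:33225167-33229235. Their shEmpty levels against WT were higher in DNMT TKO by 1.10 to 3.61 and differed in TET TKO by -2.22 to -1.04 on the log2 scale. Of the 18 integrants with opposite responses, 12 had an LTR at both ends and a sequence. All 12 held an 18-base stretch behind the LTR, their LTR pairs were 98.3% to 100% identical (median 99.7%), and 5 had identical LTRs. These traits were common among like integrants. Of all 286 tested integrants with an LTR at both ends and a sequence, 240 held a stretch. The median LTR identity was 98.3% over all 335 such rows and 100% over the 28 MMETn rows with ERVB7_1-LTR_MM.

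5hmC was measured by immunoprecipitation of WT cells with shEmpty or shKap1 and counted over the KAP1 and H3K9me3 regions, with 1 usable input and 1 usable 5hmC library for each hairpin, so no test was made. Values are log2 changes of 5hmC over input from shEmpty to shKap1, per region with at least 10 input reads. The median over 25992 KAP1 regions was 0.64, and 0.63 over the 24924 that overlapped no ETn or MMETn row. It was 1.04 over 398 regions on ETnERV-int (365 above 0), 0.94 over 195 on ETnERV2-int (161 above 0), 0.50 over 136 on ETnERV3-int (95 above 0) and 0.85 over 339 on MMETn. The input itself moved for MMETn, whose regions held 0.348% of the shEmpty and 0.137% of the shKap1 input reads, and its part in this median was not tested. For ETnERV these shares were 0.306% and 0.287%. By LTR, regions on ETnERV with ERVB7_1-LTR_MM had a median of 1.14 (n = 310), on MMETn with RLTRETN_Mm of 0.85 (n = 219) and on MMETn with ERVB7_1-LTR_MM of 0.76 (n = 69).

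**Figure D5:**
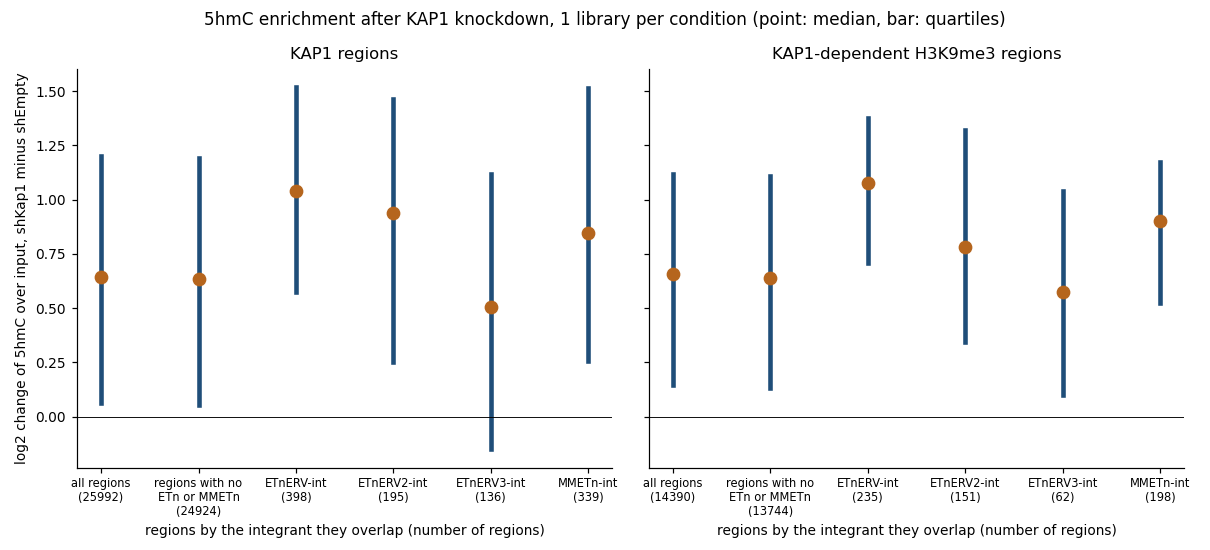
Median (point) and quartiles (bar) of the log2 change of 5hmC over input from shEmpty to shKap1 in WT cells, 1 library per condition, over KAP1 regions and KAP1-dependent H3K9me3 regions grouped by the internal part they overlap. ETnERV-int lies highest at 1.04 and 1.08, and ETnERV3-int at 0.50 and 0.57, against 0.64 and 0.66 over all regions.

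KAP1-dependent H3K9me3 regions, those that lose the mark on knockdown, gave 1.08 on ETnERV-int (n = 235), 0.78 on ETnERV2-int (n = 151), 0.57 on ETnERV3-int (n = 62) and 0.90 on MMETn (n = 198), against 0.66 over all 14390. Regions on ETnERV integrants called higher in WT had a median of 1.08 (n = 319), on those tested and not called 0.92 (n = 134) and on those under 16 reads 0.74 (n = 276). In MMETn these medians were 0.87 (n = 234), 0.92 (n = 86) and 0.34 (n = 19). Other library totals lowered every median, that of all KAP1 regions to 0.26 or 0.28, so the values are read against that of all regions.

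Of 34 measured genes of a list of 35 with KAP1 partners, H3K9 and DNA methylation enzymes, TET enzymes and zinc finger genes, 5, 1 and 2 were called higher in WT, DNMT TKO and TET TKO (10.8%, 10.1% and 8.05% of 20321 tested genes) and 1 lower in each, which was Trim28 (6.54%, 2.42% and 4.46%). Those higher were Gm13212, a KRAB zinc finger gene, with 2.23, 1.18 and 1.02 in the 3 genotypes, the de novo DNA methyltransferase Dnmt3a with 1.15 in WT and 1.26 in TET TKO, and in WT Tet3 with 1.80, the H3K9 methyltransferase Suv39h1 with 1.21 and Zfp809, a KRAB zinc finger gene known for binding retroviral primer-binding sites, with 1.53.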

How the data were processed

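Per the labels and the study's methods, the authors aligned stranded RNA reads to mm9 (HISAT2 2.0.1), kept uniquely mapped reads, counted genes with featureCounts 1.5.1 and repeats with bedtools 2.25 on a RepeatMasker track in which internal parts and their LTRs within 400 bp were merged. The deposited files hold raw counts per gene, per repeat and, for 5hmC, per region. The peak files carry a score per peak that the authors' callers gave (MACS 1.4 for KAP1 and H3K4me3), which was used here for nothing but position. RNA libraries held 18108400 to 29373700 gene reads.

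From these, repeats with at least 16 reads over 16 libraries were fitted with edgeR 4.0.16 (quasi-likelihood, gene library sizes with TMM, 6 groups, no block), and Benjamini-Hochberg adjustment ran over all 123880. Family names were summed and fitted over 887 families. The SE of an edgeR value was back-calculated as the size of its log2 change divided by the square root of the F statistic. It is approximate, and the SE of a difference need not follow from those of its parts, most of all where a group held few reads. DESeq2 1.42.0, limma-voom (limma 3.58.1), other scalings, filters and overlaps, a replicate block, leave-one-out fits and, chosen after seeing the data, the omission of rows nested in others were the alternatives. Intervals and floors cover counting error alone. In simulated data, 147 of 200 changes of 4-fold were recovered over 123880 features, with 4 false calls. The simulation gave all features the same spread, all groups the WT shEmpty levels, and changes only to features with more reads than the filter asks. Its counts therefore do not give the recovery or false calls of the results above.

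Named integrants were, per family and knockdown, the 3 largest rises and 2 largest falls with at least 200 reads, per other contrast the 2 largest each way with at least 100 reads, the 10 opposite responders with the largest direct contrasts and the most-read ones, with the gene they overlap or the nearest start within 50 kb. Members and lists were chosen with earlier results of these data known. Not every integrant named by this rule is described, and 1 of them is not reported here. The methods call the RNA replicates independent experiments. Same-numbered shEmpty and shKap1 libraries deviated together over genes in WT (r 0.30 to 0.47) and DNMT TKO (0.20 to 0.57), so that the numbers were taken to pair there, and not in TET TKO (-0.025). Over repeats r was lower (0.051 to 0.22 and 0.0046 to 0.29), and not every pair passed 0.1. Same-numbered shEmpty libraries of WT and DNMT TKO also deviated together (0.32 to 0.51 over genes, 0.11 to 0.23 over repeats). 5hmC used 1 replicate; 4 further libraries had no clear group in the labels. Sequences were read from the mm9 genome, on which 222 rows, on unplaced pieces, had none.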

Additional observations from a re-analysis of the deposited data

Results flagged for a closer look

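Each result here rests on a test of the difference between 2 genotypes' knockdown effects, in log2 units. The shEmpty level of a genotype enters its effect. Of the 26 differences, 17 lost their call in 1 to 9 of the 16 fits that left out 1 library. Summed ETnERV reads rose by 0.83 more in TET TKO than in WT and by 0.77 more than in DNMT TKO, and each was lost in 9 of those fits, with the replicate block (adjusted p = 0.050 and 0.071) and with repeat library sizes (adjusted p = 0.095 and 0.10).

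Against WT, the effect in DNMT TKO was larger at chr11:83045720-83047853 (5.83), chr16:31385492-31385952 (5.83) and chr13:14352701-14353623 (5.62), whose nested row chr13:14352967-14353623 holds the same reads (5.62). It was smaller at chr13:67339703-67340360 (-7.86), chr8:87686829-87687743 (-6.46), chr12:18466380-18472077 (-5.30) and chr14:19086562-19090526 (-5.18). The calls at chr13:14352701-14353623 and its nested row were lost without DNMT TKO shEmpty replicate 3 or shKap1 replicate 1, WT shEmpty replicate 2 or 3, or WT shKap1 replicate 1 or 3 (4.86 to 7.61 over all 16 fits, adjusted p 0.062 to 0.51 where lost). That at chr8:87686829-87687743 was lost without DNMT TKO shEmpty replicate 2 or 3, DNMT TKO shKap1 replicate 1 or 2, or WT shEmpty replicate 1 (-8.37 to -6.09, adjusted p 0.064 to 0.33). Those at chr12:18466380-18472077 and chr13:67339703-67340360 were lost without DNMT TKO shEmpty replicate 1 (-3.89, adjusted p = 0.26) and replicate 3 (-7.06, adjusted p = 0.20). More Trim28 RNA remained in that line than in WT, and its part was not tested.

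The effect in TET TKO exceeded that in WT at chr19:13060822-13068327 (5.63), chr5:5778199-5779929 (5.23), chr12:89338540-89345451 (4.97) and chr13:76588376-76593154 (4.18), and each of these calls depended on single libraries. At chr12:89338540-89345451 it was lost in 8 fits, without WT shEmpty replicate 2 or 3, any WT shKap1 library, either TET TKO shEmpty library or TET TKO shKap1 replicate 2 (3.68 to 5.65, adjusted p 0.053 to 0.72). At chr5:5778199-5779929 it was lost in 6, without WT shEmpty replicate 1 or 3, WT shKap1 replicate 3, either TET TKO shEmpty library or TET TKO shKap1 replicate 1 (4.99 to 5.43, adjusted p 0.059 to 0.29). At chr19:13060822-13068327 it was lost without WT shEmpty replicate 3 or either TET TKO shEmpty library (4.59 to 6.04, adjusted p 0.16 to 0.45), and at chr13:76588376-76593154 without WT shEmpty replicate 2 or 3 or TET TKO shEmpty replicate 1 (3.30 to 6.30, adjusted p 0.069 to 0.25). The effect fell short at chr7:19339248-19340740 (-5.42), chr13:3484008-3484773 (-5.30), chr13:3485329-3488292 (-5.24) and chr13:67339703-67340360 (-4.85). The first was lost without WT shEmpty replicate 2 or 3 or either TET TKO shEmpty library (adjusted p 0.053 to 0.067), and the last without WT shEmpty replicate 2 or 3 or TET TKO shEmpty replicate 1 (adjusted p 0.066 to 0.090). The rows chr13:3484008-3484773 and chr13:3485329-3488292 share exon reads of 2810429I04Rik. The former held 0, 2 and 1 reads in WT shEmpty and 140, 195 and 146 in WT shKap1. In TET TKO it held 87 and 85 and then 323 and 245 reads.

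Between the mutants, TET TKO showed the larger effect at chr1:92784024-92785970 (8.14), chr8:87686829-87687743 (7.37), chr1:92786118-92788189 (7.06) and chr12:18466380-18472077 (4.01), and the smaller at chr13:67785452-67787800 (-5.35), chr2:149933305-149933961 (-4.67), another ETnERV2-int row (-3.87) and chr17:18090615-18092752 (-3.33). The call at chr2:149933305-149933961 was lost in 7 fits, without DNMT TKO shEmpty replicate 1 or 2, DNMT TKO shKap1 replicate 1 or any TET TKO library (-6.44 to -3.77, adjusted p 0.059 to 0.75). That at chr8:87686829-87687743 was lost without DNMT TKO shEmpty replicate 2 or 3, DNMT TKO shKap1 replicate 1 or TET TKO shEmpty replicate 1 (6.53 to 9.53, adjusted p 0.052 to 0.31). Those at chr12:18466380-18472077 and chr17:18090615-18092752 were lost without DNMT TKO shEmpty replicate 1 (2.61, adjusted p = 0.65) and TET TKO shEmpty replicate 1 (-2.98, adjusted p = 0.15). Where a group held 3 reads or fewer, the fitted size depends on the prior count and is no bound. This holds at chr13:67339703-67340360, chr1:92784024-92785970, chr19:13060822-13068327, chr16:31385492-31385952, chr5:5778199-5779929 and chr13:67785452-67787800, among others listed here.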

How the results depend on the processing

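Both families kept their rise in all 3 genotypes under every alternative, with the number called higher within 1.5 times. Leaving out 1 library gave 313 to 366, 364 to 410 and 327 to 409 ETnERV and 275 to 305, 271 to 314 and 294 to 328 MMETn integrants called higher in WT, DNMT TKO and TET TKO. Nested rows left out gave 310, 356 and 347, and 262, 267 and 290.

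Smaller counts moved. With DESeq2, 43 ETnERV integrants were higher in DNMT TKO shEmpty than in WT, 30 lower in TET TKO, and 19 differed in knockdown effect between TET TKO and WT. With limma-voom, 23 ETnERV and 22 MMETn integrants were lower in TET TKO, 12 MMETn differed in effect between TET TKO and WT and 37 between the mutants, and opposite responders numbered 2, 0 and 8 in the 3 ways. With at least 50 reads, 15 and 22 ETnERV integrants differed in effect between TET TKO and WT or DNMT TKO, and the first way gave 2. Repeat library sizes gave 2 by the second way, and no fold threshold 3 by the second and 23 by the third. Leaving out nested rows gave 19 ETnERV integrants lower in DNMT TKO. Leave-one-out ranges were 45 to 70 ETnERV higher in DNMT TKO (45 without WT shEmpty replicate 2), 28 to 51 ETnERV and 28 to 48 MMETn lower in TET TKO (28 and 28 without TET TKO shEmpty replicate 1), 20 to 41 ETnERV and 19 to 43 MMETn for the effect in TET TKO against WT (20 and 19 without that library), 21 to 42 ETnERV between the mutants (21 without TET TKO shEmpty replicate 2) and 0 to 2 for the second way. The cause was not tested.

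Overlap over 25% of a row lowered ETnERV to 13.97% for KAP1, 19.1% for H3K9me3 and 1.84% for H3K4me3, and MMETn to 13.5%, 28.4%, 5.65% and, for H3K27me3, 0%. 5hmC medians with totals over H3K4me3 regions were 0.56 and 0.46 (ETnERV and MMETn in KAP1 regions), 0.56 and 0.51 (KAP1-dependent H3K9me3) and 0.073 (ETnERV, KAP1-independent), and without the largest H3K9me3 region 0.57, 0.48, 0.58, 0.53 and 0.092.

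The near-zero difference of DNMT TKO from WT in summed knockdown effect changed sign. For ETnERV it was -0.0046 with repeat library sizes, -0.028 without same-strand exons, -0.019 without nested rows and -0.11 to 0.16 with 1 library left out. For MMETn it was -0.016 with RLE size factors and with DESeq2, -0.044 with repeat library sizes, -0.023 with limma-voom and -0.27 to 0.14 with 1 library left out. The replicate block changed, beside the values given in the report (ETnERV sums 0.82 and 0.77, and chr6:133959226-133964740 at -2.36), no other call of a sum or a named integrant. Over 66 values of named integrants, 131 of 1544 alternative fits lost a call and 0 turned direction: 13 came without a read filter, 9 with at least 50 reads, 9 with DESeq2, 7 with limma-voom, 2 with repeat library sizes, 1 with the block, 1 with the genotype's own 2 groups alone and 2 to 12 with each library left out.

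Depth limits integrants under 16 reads, uniquely mapped reads understate young copies, and TET TKO, with 2 libraries per hairpin, has the fewest libraries.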

Other observations

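The 4 hMeDIP libraries whose titles and file names gave different roles were put in no group. ETnERV regions held 0.215%, 0.306%, 0.443% and 0.294% and MMETn regions 0.104%, 0.338%, 0.211% and 0.166% of their reads. In the first replicate the shares were 0.306% and 0.348% for shEmpty input, 0.287% and 0.137% for shKap1 input, 0.280% and 0.137% for shEmpty 5hmC and 0.535% and 0.247% for shKap1 5hmC.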
